A study of Mus musculus with 18 samples.

Results

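The transcripts described here are those of 54 cell cycle genes, which act in the G1 phase, in DNA replication and in mitosis. They were followed in 3 epithelial populations sorted from the mouse mammary gland. The genes were taken by symbol: they are the rows whose Ensembl identifier carries 1 of the 54 symbols in the GENCODE M21 annotation, 54 of 52636 identifiers in all. All 54 were found, and 51 had counts enough to be tested. Each of the 18 RNA sequencing libraries holds 1 population of 1 numbered sample, with 6 libraries per population. Hormone-sensing luminal cells (HSL, also known as mature luminal cells) were sorted as CD49f low and CD61 negative, alveolar progenitors (AP, also known as luminal progenitors) as CD49f low and CD61 positive, and basal cells as CD49f high and CD61 positive. All populations came from 6 untreated nulliparous mice, 12 weeks old and of the genotype MMTV-Cre, so that every group carries the transgene, in which a viral promoter active in mammary epithelium drives Cre recombinase. Antibodies to EpCAM, Ter119, CD45 and CD31 were part of the sort as well. Each population has sample numbers 1 to 6, and populations were compared within a number; the labels do not state that a number is 1 animal, and p-values measure the spread between these samples.

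Progress through the cell cycle is driven by cyclins and their kinases. Cyclins D and E with Cdk4, Cdk6 and Cdk2 release E2F transcription factors from the retinoblastoma protein in G1, and E2F then raises the genes that license origins and copy DNA. In G2 the transcription factors Mybl2 and Foxm1 raise the mitotic genes, whose products condense chromosomes, build the spindle and divide the cell, and inhibitors such as p27 and p57 hold the kinases back. Transcripts of replication and mitosis genes are scarce in resting cells, and in the mammary epithelium of adult virgin mice division is known to vary with the oestrous cycle.

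Total gene counts per library were 26516293 to 52404937 in HSL, 37391691 to 62505465 in AP and 29899462 to 91095830 in basal libraries. Levels are given as CPM, the count scaled to a common library size with TMM factors, and 1 CPM stands for 24.3 counts in the smallest scaled library. Defining markers followed the labels. Summed over 6 genes, hormone-sensing markers stood at 2832 to 6126 CPM in HSL, 343 to 1649 CPM in AP and 128 to 336 CPM in basal libraries. The 5 progenitor markers stood at 184 to 684 CPM in HSL, 2881 to 6128 CPM in AP and 106 to 205 CPM in basal libraries, and the 6 basal markers at 32.8 to 159 CPM, 90.5 to 274 CPM and 22511 to 40660 CPM in the same order of populations. The 3 libraries of sample 1 stood apart from the others. Its HSL library had the lowest sum of hormone-sensing markers among HSL libraries, its AP library the lowest sum of progenitor markers among AP libraries, and its basal library the lowest sum of basal markers among basal libraries. The same HSL library had the highest progenitor sum (684 CPM, 184 to 488 CPM in the others) and basal sum (159 CPM, 32.8 to 64.6 CPM in the others) of its population. The AP library of sample 1 had the highest basal sum (274 CPM, 90.5 to 256 CPM in the others) but the lowest hormone-sensing sum (343 CPM). In its basal library the hormone-sensing sum was lowest too (128 CPM). Most cell cycle genes were highest in sample 1, so the main counts are given with and without it. In bulk RNA, fewer cycling cells and less RNA per cycling cell cannot be told apart.

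The genes of replication and mitosis were lowest in HSL libraries and, for a smaller number of genes, highest in AP libraries. In HSL against AP, 37 of the 51 members were lower (25.3% of all 16471 genes tested were called lower in that comparison) and 3 were higher (background 25.6%), namely Ccnd3, Cdk2 and Aurka. In HSL against basal, 34 were lower (background 35.5%) and 7 were higher (background 31.8%), namely Ccnd1, Ccnd3, E2f2, Mcm2, Mcm6, Aurka and Anln. In AP against basal, 16 were higher (background 26.7%) and 4 were lower (background 28.4%), namely Ccnd2, Ccne1, Cdk4 and Cdkn1c. As shares of the 51, the members lower in HSL libraries made up 72.5% against AP and 66.7% against basal, above the 25.3% and 35.5% of all genes, whereas the 31.4% higher in AP against basal is near the background. The median log2 fold change of the members was -1.14 in HSL against AP, -1.11 in HSL against basal and 0.48 in AP against basal. Over all genes tested it was 0.00, -0.06 and -0.01. In either direction 50.8% of all genes were called in HSL against AP, 67.3% in HSL against basal and 55.1% in AP against basal. Calls are from edgeR's quasi-likelihood test with the sample number as a block and Benjamini-Hochberg adjustment over all genes, at an adjusted p below 0.05.

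With sample 1 included, most of these calls needed the pairing of libraries by sample number. Without the block, 5 members were lower and 0 higher in HSL against AP by edgeR (background 20.1% and 19.8%; 1 was higher at an unadjusted p below 0.05, and DESeq2 with the block called 3), although the HSL library was below the AP library of its sample in all 6 samples for 28 members. The 5 were Cdk6, Cdkn1c, Cdkn2c, Kif11 and Rrm1. In HSL against basal 7 were lower and 3 higher without it (background 30.6% and 27.8%), namely Ccnd2, Ccne1, Cdk6, Cdkn1c, Cenpa, Kif23 and Pcna, and Aurka, Ccnd1 and Ccnd3. In AP against basal Ccnd1 and Cdk6 remained higher and Ccnd2 and Cdkn1c lower (background 21.5% and 23.1%). With neither sample 1 nor the block, 36 members were lower and 3 higher in HSL against AP (4062 and 3836 of all 16450 genes). In HSL against basal 29 were lower and 6 higher (5668 and 4983 of all genes). In AP against basal 8 were higher and 5 lower (4127 and 4225 of all genes). With the block and without sample 1, 35 were lower and 4 higher in HSL against AP (4491 and 4428 of all genes). In HSL against basal the counts were then 33 lower and 7 higher (6077 and 5419 of all genes). In AP against basal they were 12 higher and 8 lower (4716 and 4867 of all genes).

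**Figure D1:**
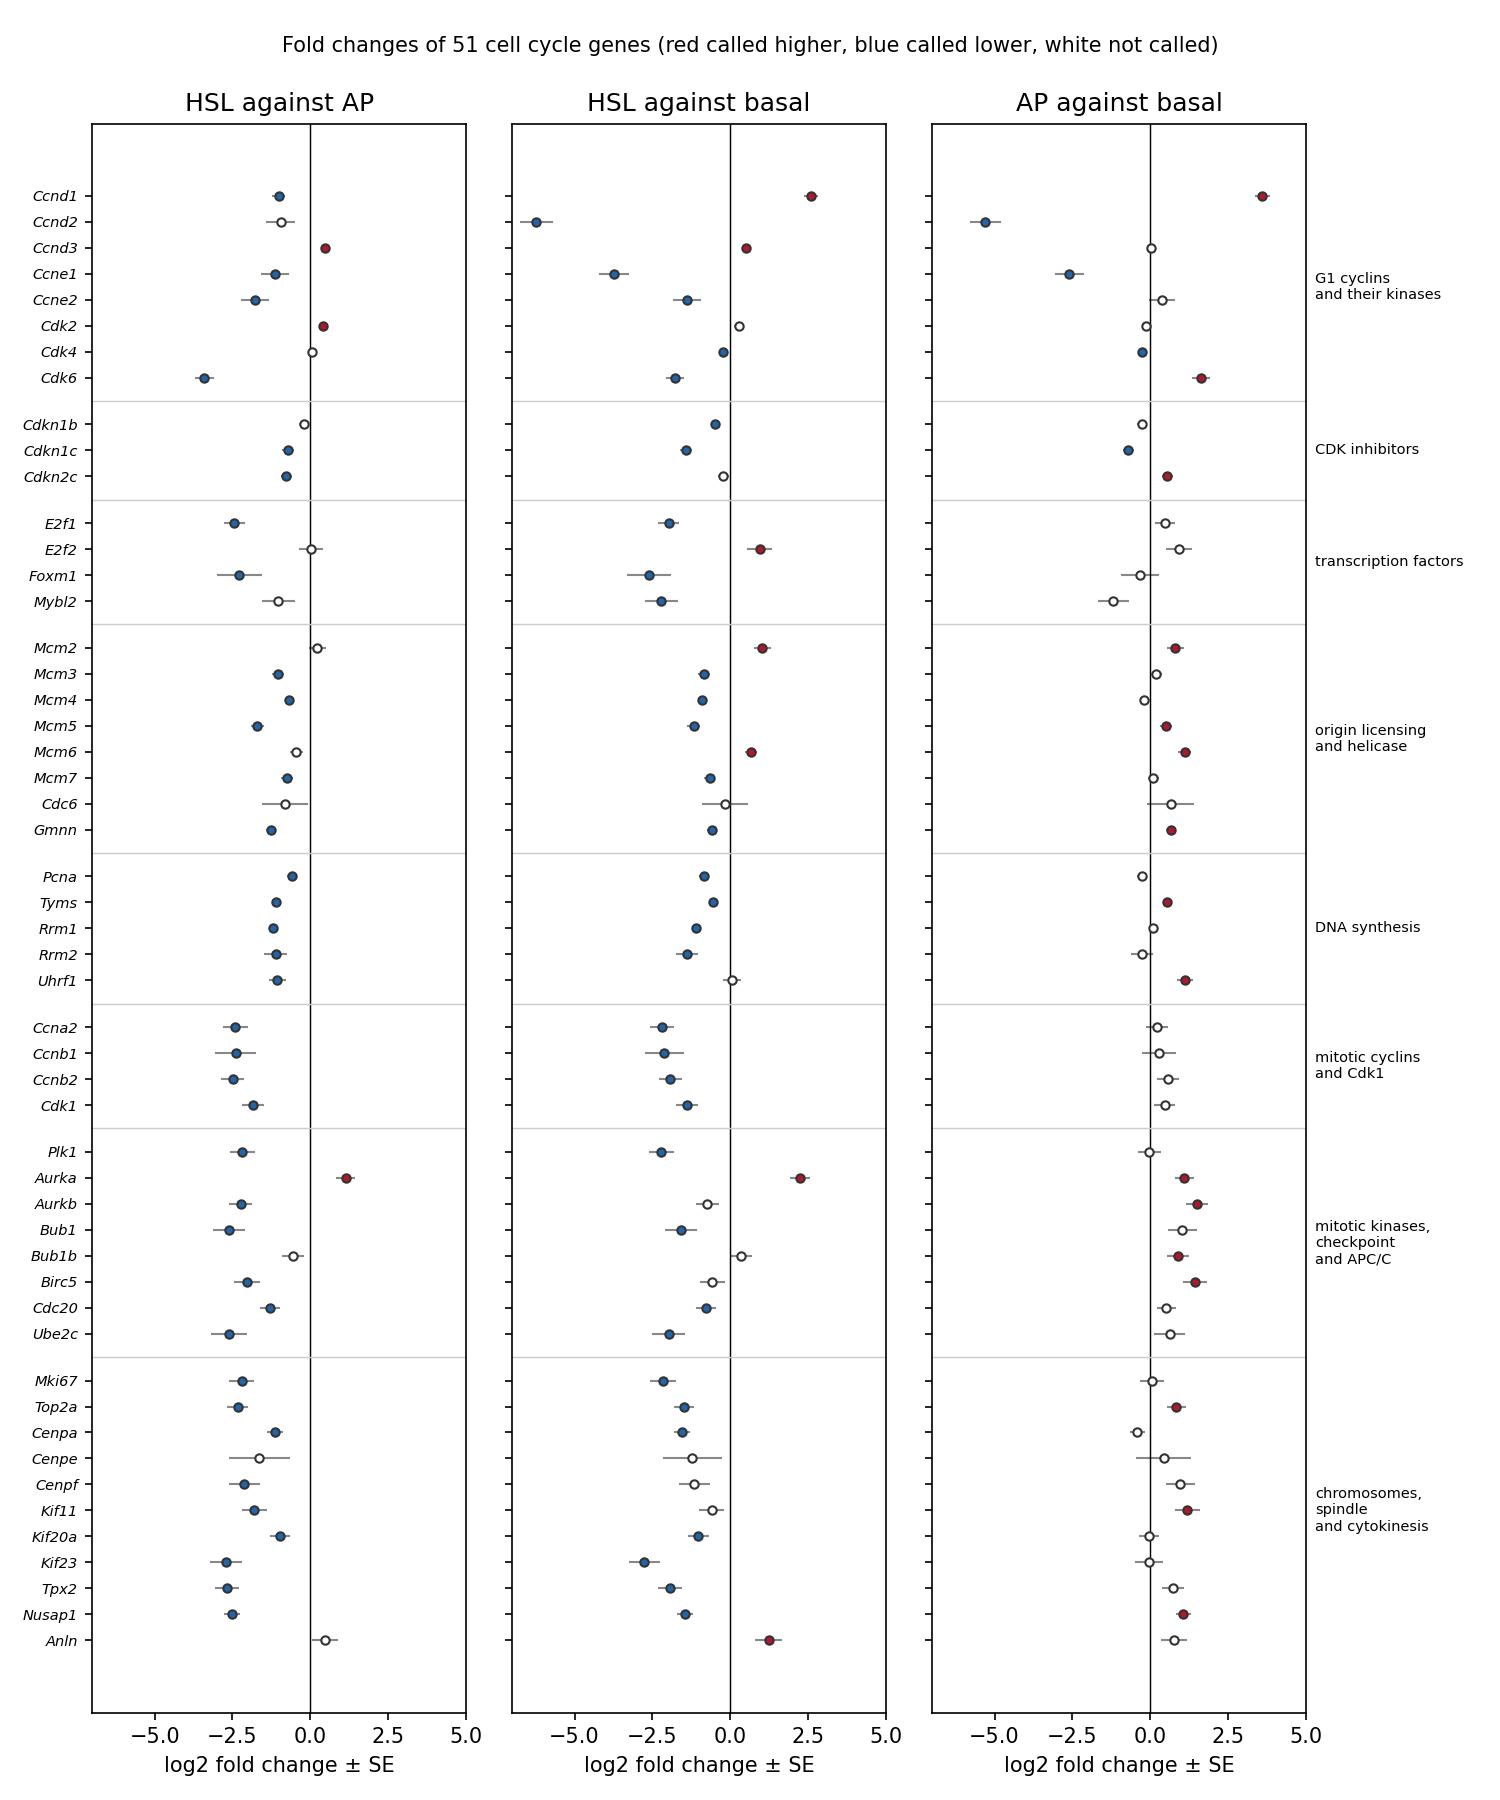
Log2 fold change with its standard error for the 51 tested members in HSL against AP, HSL against basal and AP against basal, grouped by role. Points called lower lie left of 0 for 37, 34 and 4 members, and points called higher lie right of 0 for 3, 7 and 16.

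The D cyclins, which carry growth signals into the cycle, differed between luminal and basal libraries in opposite ways for Ccnd1 and Ccnd2. Ccnd1 (ENSMUSG00000070348, chromosome 7, 144929931 to 144939925, GRCm38) stood at 117, 121 and 240.0 CPM in HSL libraries (lowest, median and highest of 6), 201, 253 and 653 CPM in AP libraries and 12.1, 18.5 and 105 CPM in basal libraries. Apart from sample 1, the ranges of the 3 populations do not overlap. Ccnd1 was lower in HSL than in AP libraries (log2 fold change -1.01 ± 0.21 SE, adjusted p = 0.0014). It was higher in HSL than in basal libraries (2.60 ± 0.23, adjusted p = 3.2e-07) and higher in AP than in basal libraries (3.61 ± 0.24, adjusted p = 3.6e-08), each in 6 of 6 samples.

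Ccnd2 (ENSMUSG00000000184, chromosome 6, 127125162 to 127152193) was high in basal libraries. It stood at 0.627, 1.96 and 7.60 CPM in HSL libraries, 2.49, 5.35 and 7.83 CPM in AP libraries and 113, 198 and 524 CPM in basal libraries, so that every luminal library was below every basal one. The log2 fold change was -6.24 ± 0.53 in HSL against basal (adjusted p = 2.3e-07) and -5.29 ± 0.50 in AP against basal (adjusted p = 1.0e-06). Between HSL and AP libraries Ccnd2 was not called, with levels lower in HSL in 4 of 6 samples. Ccnd3 varied less: 77.5, 92.3 and 131 CPM in HSL libraries, 53.7, 65.7 and 107 CPM in AP libraries and 52.9, 64.3 and 99.8 CPM in basal libraries. HSL libraries exceeded AP libraries in 6 of 6 samples (0.47 ± 0.09, adjusted p = 5.0e-04).

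Per kilobase of exon, the median level of Ccnd1 was 25.8 CPM in HSL, 53.6 CPM in AP and 3.93 CPM in basal libraries. Per kilobase of exon Ccnd2 was at 0.208 CPM, 0.569 CPM and 21.1 CPM in that order of populations, and Ccnd3 at 10.5 CPM, 7.49 CPM and 7.33 CPM. Ccnd1 was thus the most abundant D cyclin transcript in both luminal populations and Ccnd2 in the basal one, on medians and by length. Ccnd1 shares 17.7% of its span with a neighbouring gene and Ccnd2 14.1%, and without strand the reads there cannot be told apart.

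The partners of the D cyclins and the E cyclins followed other orders. Cdk6, a kinase bound by D cyclins, was highest in AP libraries: 2.99, 3.78 and 16.6 CPM in HSL, 46.5, 61.4 and 75.7 CPM in AP and 14.6, 20.7 and 27.4 CPM in basal libraries. All AP libraries lay above all others. The log2 fold change of Cdk6 was -3.40 ± 0.31 in HSL against AP (adjusted p = 2.3e-06) and 1.62 ± 0.29 in AP against basal (adjusted p = 3.0e-04). Cdk4, its close relative, varied little, with medians of 264, 247 and 321 CPM in HSL, AP and basal libraries. Ccne1, the cyclin that starts S phase with Cdk2, stood at 0.771, 1.22 and 11.7 CPM in HSL, 1.15, 2.44 and 36.1 CPM in AP and 8.79, 24.6 and 30.2 CPM in basal libraries. The highest HSL value and the highest AP value are both those of sample 1; without it no luminal library reached the lowest basal one. Ccne1 was lower in HSL than in basal libraries (-3.73 ± 0.48, adjusted p = 1.3e-05). Ccne2 was lower in HSL libraries than in both others, with medians of 0.560, 1.53 and 1.68 CPM in HSL, AP and basal libraries, and shares 41.9% of its span with another gene. Cdk2 had medians of 61.7, 40.6 and 48.9 CPM.

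**Figure D2:**
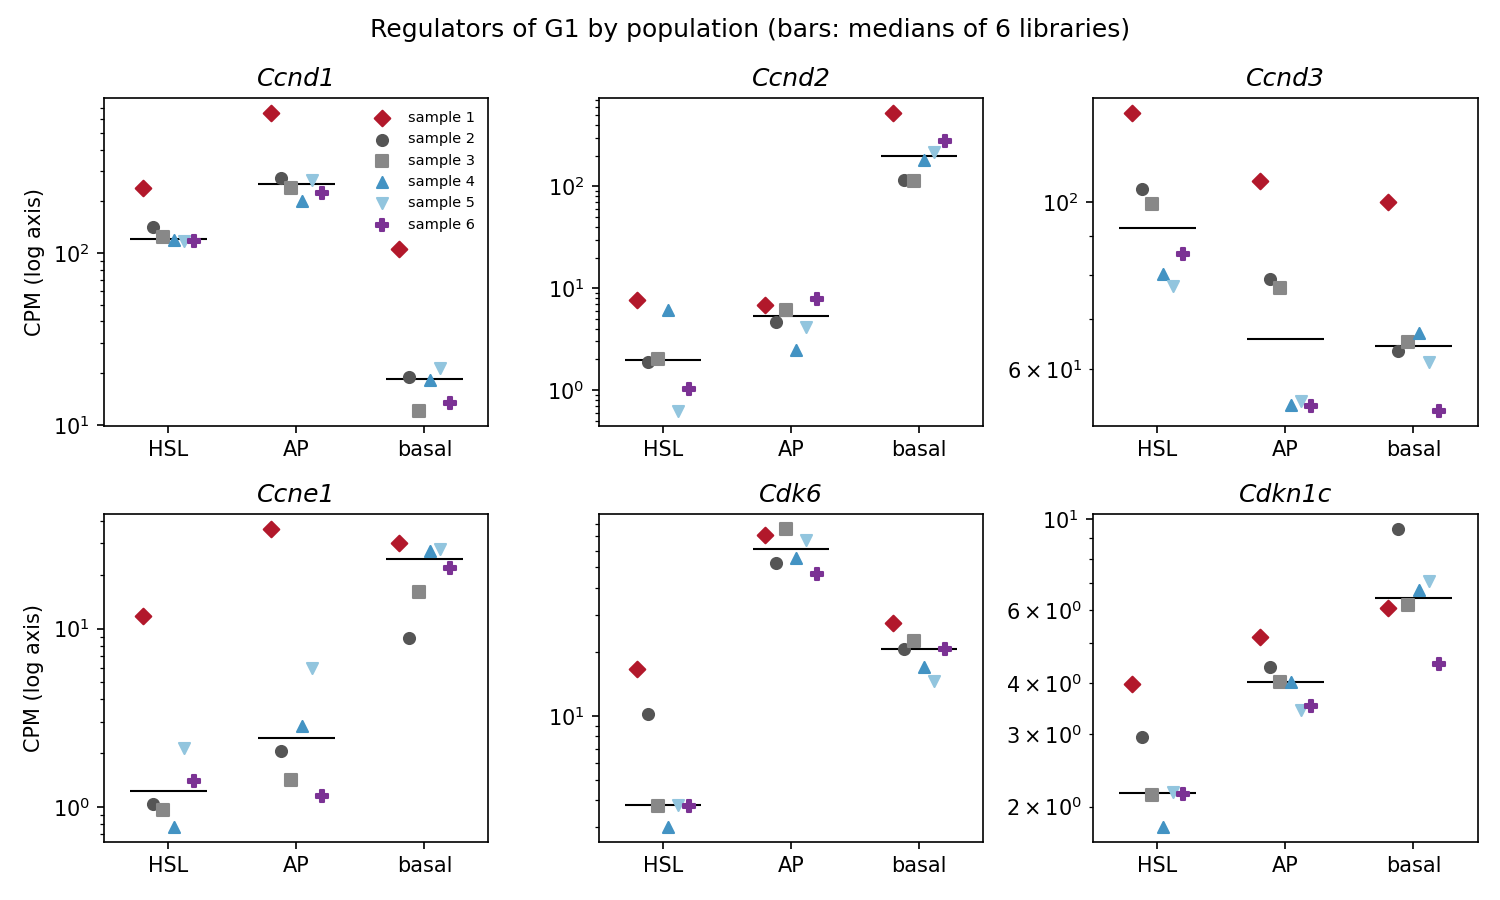
Levels of 6 regulators of G1 in CPM on log axes, 1 point per library and a bar at the median of 6, for HSL, AP and basal libraries. Ccnd2 is above 100 CPM in basal libraries alone, Cdk6 is highest in AP libraries, and sample 1 is the highest point for Ccnd1 and Ccnd3 in each population.

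Of the 3 inhibitors, Cdkn1c, which encodes p57, was graded from basal to HSL libraries. It stood at 1.78, 2.15 and 3.97 CPM in HSL, 3.44, 4.02 and 5.18 CPM in AP and 4.45, 6.45 and 9.46 CPM in basal libraries. Within each of the 6 samples the HSL library was lowest and the basal library highest. The log2 fold change was -0.72 ± 0.18 in HSL against AP (adjusted p = 0.0051), -1.42 ± 0.19 in HSL against basal (adjusted p = 1.5e-05) and -0.70 ± 0.18 in AP against basal (adjusted p = 0.0052). Another gene overlaps 32.9% of the span of Cdkn1c. Cdkn2c, an inhibitor of Cdk4 and Cdk6 that E2F raises in dividing cells, was lower in HSL than in AP libraries (-0.77 ± 0.17, adjusted p = 0.0024) and higher in AP than in basal libraries (0.55 ± 0.17, adjusted p = 0.016), with medians of 12.4, 17.1 and 13.5 CPM in HSL, AP and basal libraries. Cdkn1b, which encodes p27, was lower in HSL than in basal libraries (-0.48 ± 0.16, adjusted p = 0.015), at medians of 7.42, 9.05 and 9.79 CPM. The call was lost without the block, and in sample 1 the HSL library was above the basal one (15.4 and 12.7 CPM). These medians lie between the levels of samples 1 to 3 and those of samples 4 to 6, which are given at the end.

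Among the 4 transcription factors, E2f1, Foxm1 and Mybl2 were scarce in HSL libraries. E2f1 stood at 0.345, 0.848 and 30.7 CPM in HSL, 1.43, 6.72 and 129.8 CPM in AP and 1.45, 5.28 and 73.5 CPM in basal libraries. The maximum is sample 1 in each population; among samples 2 to 6 the highest values were 1.64 CPM in HSL, 9.20 CPM in AP and 6.95 CPM in basal libraries. E2f1 was lower in HSL than in AP libraries (-2.45 ± 0.34, adjusted p = 5.3e-05) and than in basal libraries (-1.97 ± 0.34, adjusted p = 1.7e-04). Foxm1 was lower in HSL than in AP (-2.27 ± 0.72, adjusted p = 0.017) and than in basal libraries (-2.60 ± 0.71, adjusted p = 0.0054), and Mybl2 was lower in HSL than in basal libraries (-2.21 ± 0.52, adjusted p = 0.0020). E2f2 was lowest in basal libraries, with medians of 2.06, 1.56 and 1.13 CPM in HSL, AP and basal libraries. In HSL against basal its adjusted p was 0.0496, and 0.089 without sample 1. In AP against basal 0 of the 4 factors were called higher and 0 lower by edgeR (background 26.7% and 28.4%). At an unadjusted p below 0.05, and by DESeq2, 1 was higher and 1 lower.

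The start regions of many replication and mitosis genes carry the letters that E2F and the mitotic activators are known to bind. RefSeq promoter windows of 300 bases (250 before the start and 50 after, GRCm38.p6) were matched by symbol for 42 of the 54 members and for 27025 genes in all. The letters of the CHR, TTTGAA on either strand, are bound by the DREAM and Mybl2 complexes. They were in a window of 14 of 19 mitosis members (73.7%), of 1 of 13 replication members (7.69%) and of 20.2% of all genes. The CCAAT box, CCAAT on either strand and bound by NF-Y, was in 84.2% of mitosis members, 69.2% of replication members and 41.1% of all genes, and both together in 68.4% of mitosis members and 7.97% of all genes. An E2F site, taken as TTTCCCGC, TTTCGCGC, TTTGCCGC or TTTGGCGC on either strand, was in 53.8% of replication members, 5.26% of mitosis members and 2.60% of all genes. Of 7 G1 and inhibitor members with a window, 0 had CHR letters and 1 an E2F site. The 13 replication members counted here include Cdt1 and Tk1, which were not tested for expression, and lack Mcm4 and Gmnn. Hits of different motifs overlapped in 1 member window. A match of letters is a description of the window and not a site shown to be bound. The 160 bases before the start are printed for 3 mitosis genes and 2 replication genes whose levels are given below, with CHR, CCAAT and E2F letters in capitals; in Mcm5 and Mcm6 a pair of E2F matches overlap in 1 run.
Cdk1, chr10:69352913-69353072, minus strand: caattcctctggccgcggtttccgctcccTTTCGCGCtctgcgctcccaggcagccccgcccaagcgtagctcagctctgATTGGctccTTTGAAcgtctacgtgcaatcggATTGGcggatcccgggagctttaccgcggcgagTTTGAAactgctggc
Top2a, chr11:99024190-99024349, minus strand: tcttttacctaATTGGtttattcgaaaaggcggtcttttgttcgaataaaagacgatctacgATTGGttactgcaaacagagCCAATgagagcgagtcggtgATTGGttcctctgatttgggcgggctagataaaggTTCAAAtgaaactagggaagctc
Cdc20, chr4:118437344-118437503, minus strand: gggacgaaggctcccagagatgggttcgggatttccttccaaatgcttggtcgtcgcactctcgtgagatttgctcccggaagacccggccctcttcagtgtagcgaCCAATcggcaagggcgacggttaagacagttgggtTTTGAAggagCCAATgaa
Mcm5, chr8:75109349-75109508, plus strand: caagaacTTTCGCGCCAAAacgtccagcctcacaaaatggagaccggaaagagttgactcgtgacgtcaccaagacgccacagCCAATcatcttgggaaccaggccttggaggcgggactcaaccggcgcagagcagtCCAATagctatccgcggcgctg
Mcm6, chr1:128359706-128359865, minus strand: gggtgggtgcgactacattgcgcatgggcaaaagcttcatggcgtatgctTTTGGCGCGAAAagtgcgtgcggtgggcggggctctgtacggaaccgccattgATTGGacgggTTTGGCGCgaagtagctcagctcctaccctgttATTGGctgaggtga

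Replication genes were lower in HSL libraries than in both other populations, with a few exceptions. Of the 13 tested, 10 were lower (76.9%, background 25.3%) and 0 higher (background 25.6%) in HSL against AP by edgeR. In HSL against basal 9 were lower (69.2%, background 35.5%) and 2 higher (15.4%, background 31.8%). In AP against basal 6 were higher (46.2%, background 26.7%) and 0 lower (background 28.4%). Both counts of 0 were also 0 at an unadjusted p below 0.05 and by DESeq2. Neither held without sample 1. There 1 replication gene (Mcm2) was higher in HSL against AP (4428 of all 16450 genes). In AP against basal 5 were then higher and 2 lower (Mcm4 and Pcna), beside 4716 and 4867 of all genes. Mcm5, a subunit of the MCM helicase that opens origins, stood at 7.06, 9.97 and 149 CPM in HSL, 14.7, 38.1 and 581 CPM in AP and 13.1, 24.8 and 376 CPM in basal libraries. Without sample 1 the highest values were 13.3, 51.7 and 37.9 CPM in that order. Within every sample the HSL library was lowest for Mcm5, with a log2 fold change of -1.70 ± 0.20 against AP (adjusted p = 1.6e-05) and -1.17 ± 0.20 against basal libraries (adjusted p = 1.6e-04). Mcm4, another subunit, was lowest in HSL libraries too, with medians of 42.7, 64.5 and 78.5 CPM in HSL, AP and basal libraries and log2 fold changes of -0.70 ± 0.11 against AP and -0.89 ± 0.11 against basal libraries (adjusted p = 1.9e-04 and 1.1e-05). Gmnn, which encodes geminin, the protein that blocks a second round of licensing, was lower in HSL than in AP libraries (-1.26 ± 0.16, adjusted p = 2.5e-05) and higher in AP than in basal libraries (0.66 ± 0.16, adjusted p = 0.0029). Its medians were 3.02, 6.52 and 4.29 CPM. Mcm7 was lower in HSL than in both other populations, with medians of 10.1, 17.2 and 15.2 CPM in HSL, AP and basal libraries. Mcm3 was lower in HSL than in basal libraries (-0.85 ± 0.19, adjusted p = 0.0014).

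Enzymes and factors of DNA synthesis followed the same order against HSL. Rrm1, the large subunit of the enzyme that makes deoxyribonucleotides, stood at 32.7, 42.0 and 141 CPM in HSL, 54.2, 92.6 and 459 CPM in AP and 67.9, 92.6 and 271 CPM in basal libraries. Without sample 1 every HSL library lay below every AP and basal library. The log2 fold change of Rrm1 was -1.19 ± 0.13 in HSL against AP (adjusted p = 8.0e-06) and -1.11 ± 0.13 in HSL against basal (adjusted p = 5.2e-06). Tyms, which makes thymidylate, was lower in HSL than in AP libraries (-1.09 ± 0.12, adjusted p = 9.8e-06) and than in basal libraries (-0.55 ± 0.12, adjusted p = 0.0014), and higher in AP than in basal libraries (0.55 ± 0.12, adjusted p = 0.0017). Rrm2, the small subunit of the same enzyme as Rrm1, was also lower in HSL than in both other populations, with medians of 2.50, 7.10 and 7.97 CPM in HSL, AP and basal libraries. Pcna, the sliding clamp of DNA polymerase, was lower in HSL than in basal libraries (-0.85 ± 0.16, adjusted p = 3.8e-04), with medians of 5.10, 6.95 and 9.68 CPM in HSL, AP and basal libraries. Uhrf1, which maintains DNA methylation behind the fork, was lower in HSL than in AP libraries (-1.06 ± 0.27, adjusted p = 0.0056) and higher in AP than in basal libraries (1.11 ± 0.27, adjusted p = 0.0030); it was not called in HSL against basal, with medians of 3.01, 7.77 and 2.55 CPM. The origin factor Cdc6, at 0.021 to 1.74 CPM outside sample 1, was not called in any comparison. Gins2, Cdt1 and Tk1 are listed at 0 in all 18 libraries. Each shares its whole span with another annotated gene, so this 0 is no measure of their expression.

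Mitosis genes were lowest in HSL libraries with few exceptions. Their median log2 fold change was -2.18 over 23 members in HSL against AP, and -1.05 over the 13 replication members. In HSL against basal the medians were -1.45 and -0.65, and in AP against basal 0.63 and 0.52. In HSL against AP 19 mitosis members were lower (82.6%, background 25.3%) and 1 higher (background 25.6%). In HSL against basal 15 were lower (65.2%, background 35.5%) and 2 higher (8.7%, background 31.8%). In AP against basal 7 were higher and 0 lower by edgeR (0 lower at an unadjusted p below 0.05 and by DESeq2, background 28.4%). The 30.4% higher in AP against basal is near the 26.7% of all genes, and without sample 1 the count was 4 (4716 of all 16450 genes). Ccna2, the cyclin of S and G2 phase, stood at 0.627, 1.66 and 38.1 CPM in HSL, 1.79, 13.9 and 189.9 CPM in AP and 1.35, 9.50 and 99.6 CPM in basal libraries. The ranges overlap between populations, but in each of the 6 samples the HSL library was below the other 2. Its log2 fold change was -2.40 ± 0.39 in HSL against AP (adjusted p = 1.8e-04) and -2.18 ± 0.38 in HSL against basal (adjusted p = 2.0e-04). Ccnb2, a cyclin of mitotic entry, was lower in HSL than in AP (-2.49 ± 0.37, adjusted p = 1.0e-04) and than in basal libraries (-1.93 ± 0.36, adjusted p = 3.8e-04). Its kinase partner Cdk1 was lower in HSL than in AP libraries as well (-1.84 ± 0.36, adjusted p = 7.9e-04), and than in basal libraries (-1.37 ± 0.35, adjusted p = 0.0037). Of these 3 genes and Ccnb1, edgeR called 0 in AP against basal, where it called 55.1% of all genes. DESeq2 also called 0 of the 4, and 0 had an unadjusted p below 0.05. All 4 log2 fold changes were above 0.

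Mki67 and Top2a, the usual markers of cycling cells, were both lowest in HSL libraries. Mki67 (ENSMUSG00000031004, chromosome 7, 135689784 to 135716361), which coats mitotic chromosomes, stood at 0.218, 0.780 and 5.47 CPM in HSL, 0.946, 5.86 and 11.5 CPM in AP and 2.03, 3.71 and 9.57 CPM in basal libraries. It was lower in HSL than in AP libraries (-2.20 ± 0.41, adjusted p = 5.4e-04) and than in basal libraries (-2.15 ± 0.41, adjusted p = 4.1e-04), each in 6 of 6 samples. Between AP and basal libraries Mki67 was not called (0.05 ± 0.38, adjusted p = 0.92), and its sign turned without sample 1, 4 or 5. Top2a (ENSMUSG00000020914, chromosome 11, 98992943 to 99024189), the topoisomerase that untangles sister chromatids, stood at 1.32, 3.27 and 50.8 CPM in HSL, 3.28, 29.3 and 196 CPM in AP and 1.55, 13.1 and 94.1 CPM in basal libraries. It was lower in HSL than in AP libraries (-2.33 ± 0.33, adjusted p = 7.2e-05) and than in basal libraries (-1.49 ± 0.33, adjusted p = 0.0012). In AP against basal it was higher (0.84 ± 0.31, adjusted p = 0.034), and adjusted p = 0.073 without sample 1.

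The 7 mitosis genes higher in AP than in basal libraries were Top2a, Aurka, Aurkb, Bub1b, Birc5, Kif11 and Nusap1. Without sample 1 Aurka, Aurkb, Birc5 and Nusap1 were called, and with neither sample 1 nor the block 1 mitosis gene was (4127 of all 16450 genes). Aurkb, the kinase that corrects chromosome attachment, stood at 0.816, 1.44 and 28.8 CPM in HSL, 1.22, 12.9 and 134 CPM in AP and 0.369, 4.15 and 44.4 CPM in basal libraries. It was lower in HSL than in AP libraries (-2.24 ± 0.38, adjusted p = 2.6e-04) and higher in AP than in basal libraries in 6 of 6 samples (1.49 ± 0.35, adjusted p = 0.0025). In HSL against basal Aurkb was not called (adjusted p = 0.093). Birc5, its partner survivin, was higher in AP than in basal libraries (1.45 ± 0.39, adjusted p = 0.0067), and so were Nusap1 (1.07 ± 0.25, adjusted p = 0.0026) and Kif11 (1.20 ± 0.39, adjusted p = 0.019), which act on spindle microtubules. Without sample 1 the adjusted p was 0.056 for Kif11 and 0.072 for Bub1b.

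Of the 8 mitotic kinases, checkpoint genes and genes of the anaphase-promoting complex, 6 were lower and 1 higher in HSL against AP, and 4 lower and 1 higher in HSL against basal. Of the 11 genes of chromosomes, spindle and cytokinesis, 9 were lower in HSL against AP, and 7 lower and 1 higher in HSL against basal. Plk1, the kinase of mitotic entry and exit, was lower in HSL than in AP (-2.18 ± 0.40, adjusted p = 5.6e-04) and than in basal libraries (-2.21 ± 0.40, adjusted p = 2.7e-04). Bub1, a kinase of the spindle checkpoint, was lower than in AP libraries (-2.61 ± 0.51, adjusted p = 8.5e-04), and Ube2c, the enzyme that starts ubiquitin chains for the anaphase-promoting complex, was lower than in basal libraries (-1.98 ± 0.54, adjusted p = 0.0054). Nusap1 was lower than in AP (-2.51 ± 0.26, adjusted p = 5.7e-06) and than in basal libraries (-1.45 ± 0.26, adjusted p = 2.4e-04). Tpx2, which recruits Aurka to the spindle, was lower than in AP libraries (-2.67 ± 0.39, adjusted p = 7.4e-05). Cenpa, the centromeric histone, and Kif23, a motor of cytokinesis, were lower than in basal libraries (-1.54 ± 0.26, adjusted p = 1.6e-04, and -2.76 ± 0.50, adjusted p = 2.8e-04). Cenpe, Cenpf, Bub1b, Cdc20, Kif20a and Ccnb1 had HSL medians of 0.179 to 7.50 CPM and AP medians of 0.870 to 18.2 CPM.

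**Figure D3:**
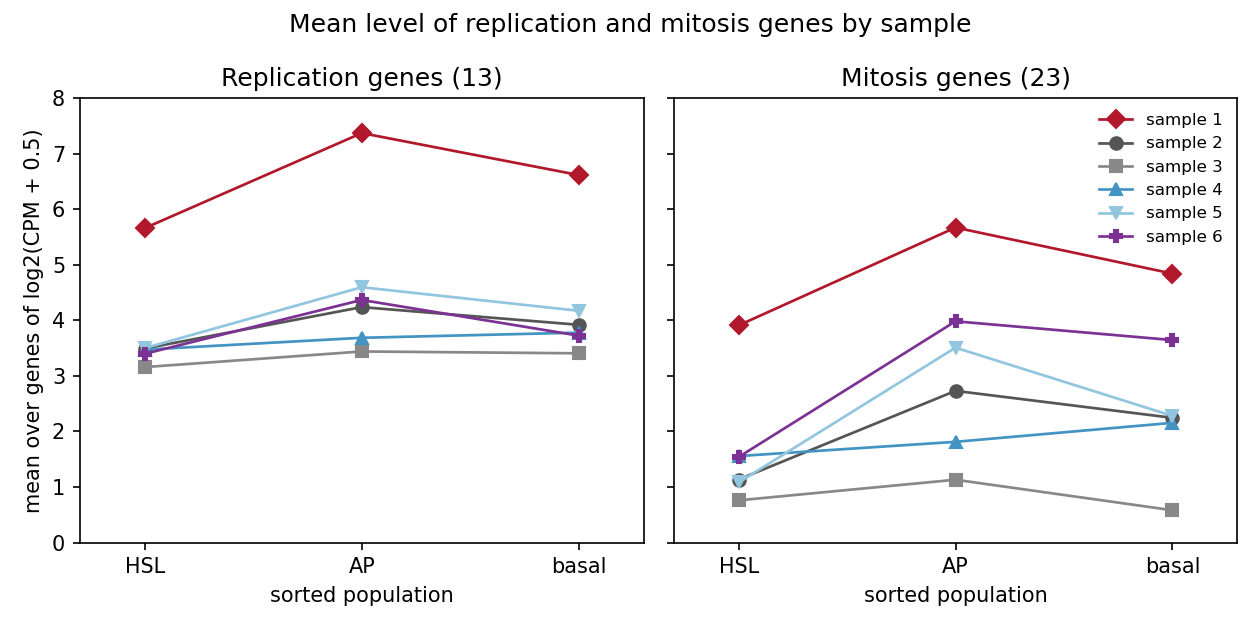
Mean of log2(CPM + 0.5) over the 13 replication genes and the 23 mitosis genes in HSL, AP and basal libraries, with a line per sample number. The HSL point is below the AP point in all 6 samples in both panels, and sample 1 is highest in every population.

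The order held sample by sample on the mean over each set, given here as the mean of log2(CPM + 0.5), with a pseudocount of 0.5. The HSL mean minus the AP mean was -1.71 to -0.21 for replication genes and -2.44 to -0.26 for mitosis genes, below 0 in 6 of 6 samples. HSL minus basal was -0.96 to -0.25 for replication genes, below 0 in 6 of 6 samples, and -2.11 to 0.18 for mitosis genes, below 0 in 5 of 6 samples. AP minus basal was -0.09 to 0.76 and -0.34 to 1.23, above 0 in 5 of 6 samples for both sets. The exception in HSL minus basal was sample 3, whose means were the lowest of the 6 samples in every population and for both sets, and in AP minus basal it was sample 4.

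Against this order, a few genes of replication and mitosis were higher in HSL libraries; they were picked out after their values were seen. Aurka (ENSMUSG00000027496, chromosome 2, 172356190 to 172370535), the kinase of centrosomes and spindle poles, stood at 17.6, 24.9 and 35.0 CPM in HSL, 5.09, 11.5 and 32.6 CPM in AP and 2.19, 4.01 and 18.3 CPM in basal libraries. Outside sample 1 every HSL library was above every AP library and every basal library. Aurka was higher in HSL than in AP libraries (1.14 ± 0.31, adjusted p = 0.0077, in 5 of 6 samples) and than in basal libraries (2.24 ± 0.33, adjusted p = 3.9e-05, in 6 of 6 samples), and higher in AP than in basal libraries (1.10 ± 0.31, adjusted p = 0.0087). It shares no part of its span with another gene. Its relative Aurkb went the other way between HSL and AP libraries, as given above.

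Mcm2 and Mcm6, both subunits of the MCM ring, were higher in HSL than in basal libraries, while Mcm3, Mcm4, Mcm5 and Mcm7 were lower. In sample 1 Mcm2 and Mcm6 went the other way. Mcm2 had 159.8 CPM in its HSL library and 265 CPM in its basal one, and Mcm6 had 283 and 437 CPM. Mcm2 stood at 48.6, 58.2 and 159.8 CPM in HSL, 31.4, 45.7 and 463 CPM in AP and 17.9, 24.1 and 265 CPM in basal libraries. Sample 1 has the maximum in each population, and in samples 2 to 6 all HSL libraries were above all basal libraries (48.6 to 68.8 against 17.9 to 33.2 CPM). The log2 fold change of Mcm2 in HSL against basal was 1.03 ± 0.28 (adjusted p = 0.0049), and 1.28 without sample 1. In HSL against AP it was not called (0.22 ± 0.27, adjusted p = 0.53), and without sample 1 it was 0.46, adjusted p = 0.046. Mcm6 stood at 84.5, 146 and 283 CPM in HSL, 103, 165 and 965 CPM in AP and 53.4, 71.6 and 437 CPM in basal libraries, and was higher in HSL (0.66 ± 0.20, adjusted p = 0.0098) and in AP than in basal libraries (1.10 ± 0.20, adjusted p = 3.6e-04). Mcm2 was also higher in AP than in basal libraries (0.81 ± 0.27, adjusted p = 0.022). Neither gene shares its span with another. Anln, an actin-binding protein of the cleavage furrow, was higher in HSL than in basal libraries (1.23 ± 0.43, adjusted p = 0.021), with medians of 24.6, 17.3 and 9.003 CPM in HSL, AP and basal libraries and a higher HSL level in 4 of 6 samples.

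**Figure D4:**
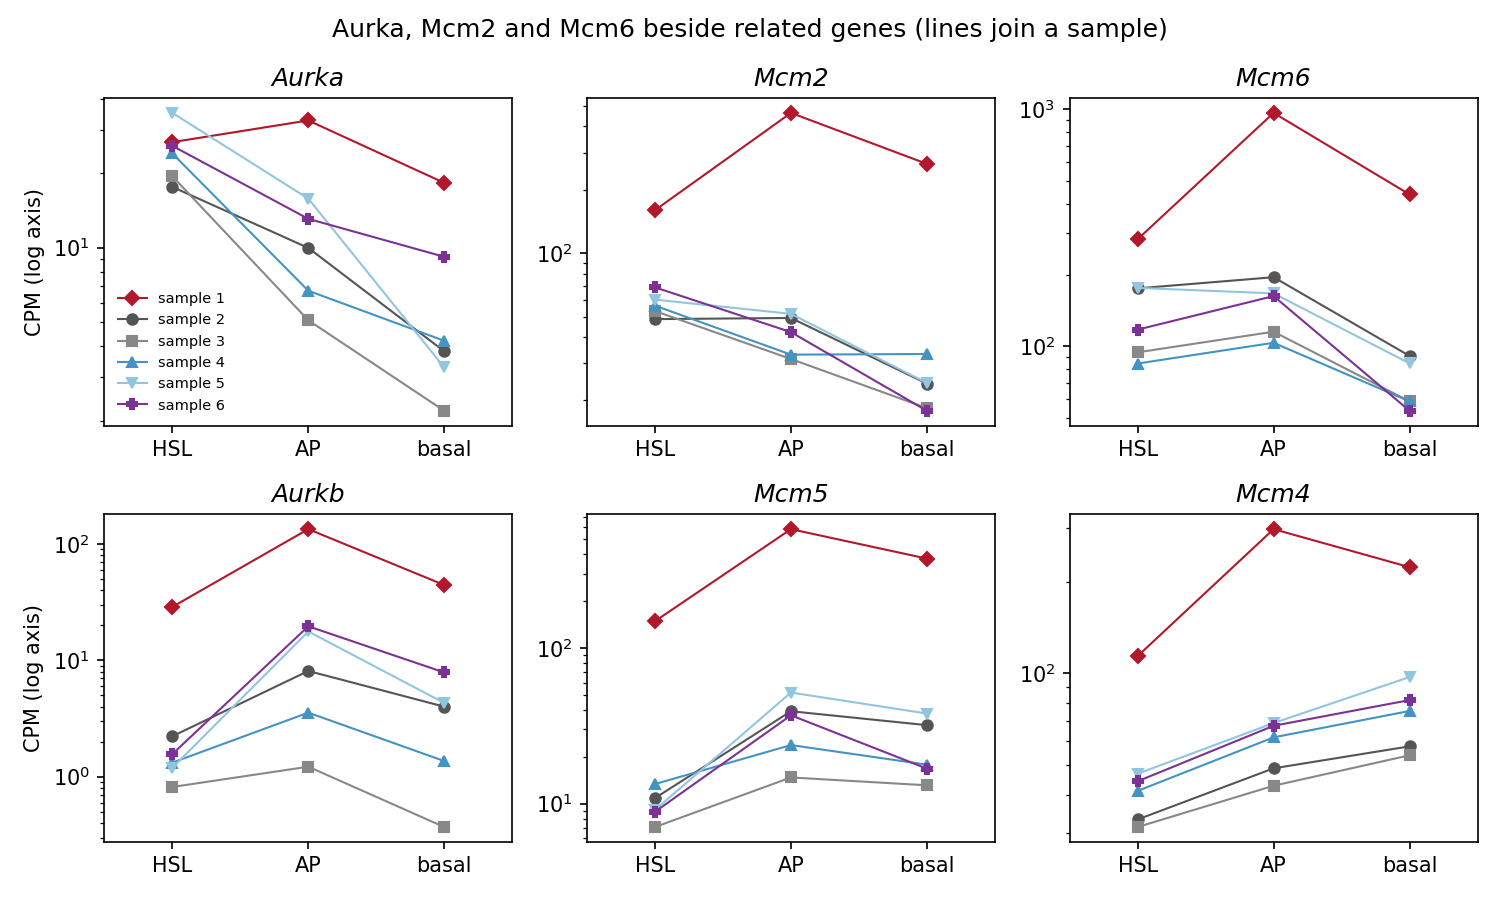
Levels of Aurka, Mcm2 and Mcm6 above those of Aurkb, Mcm5 and Mcm4, in CPM on log axes, with a line per sample number through HSL, AP and basal libraries. In samples 2 to 6 Aurka is highest in HSL and lowest in basal libraries, while Aurkb is lower in the HSL than in the AP library of every sample.

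Sample 1 held the highest level of most members in every population. It was highest for 49 of 51 members among HSL libraries, 47 among AP libraries and 46 among basal libraries, where it was highest for 30.3%, 30.0% and 29.4% of all genes tested. In all 3 populations at once it was highest for 42 of the 51 members, and for 10.1% of all genes. The 9 others were Anln, Aurka, Ccnd2, Cdk6, Cdkn1b, Cdkn1c, Cenpe, Cenpf and Mki67. The level in sample 1 over the median of samples 2 to 6 had a median of 4.22-fold over replication members in HSL, 8.28-fold in AP and 7.42-fold in basal libraries. Over mitosis members it was 9.25-fold in HSL, 7.50-fold in AP and 6.48-fold in basal libraries, and over G1 cyclins and kinases 2.62-fold, 2.43-fold and 1.76-fold. On the mean of log2(CPM + 0.5), replication genes in sample 1 stood at 5.66 in HSL, 7.37 in AP and 6.61 in basal libraries, against 3.16 to 3.50, 3.44 to 4.60 and 3.41 to 4.17 in samples 2 to 6. Mitosis genes stood at 3.91, 5.67 and 4.84 in sample 1, against 0.76 to 1.56, 1.13 to 3.98 and 0.58 to 3.64 in the other samples. The AP and basal mitosis means of sample 6 came nearest. In basal libraries sample 1 was highest for 20 of 23 mitosis members, all but Mki67, Cenpe and Cenpf. For Mki67 it had 6.77 CPM there and the highest of the others 9.57 CPM, while for Top2a it had 94.1 CPM and the highest of the others 27.6 CPM.

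**Figure D5:**
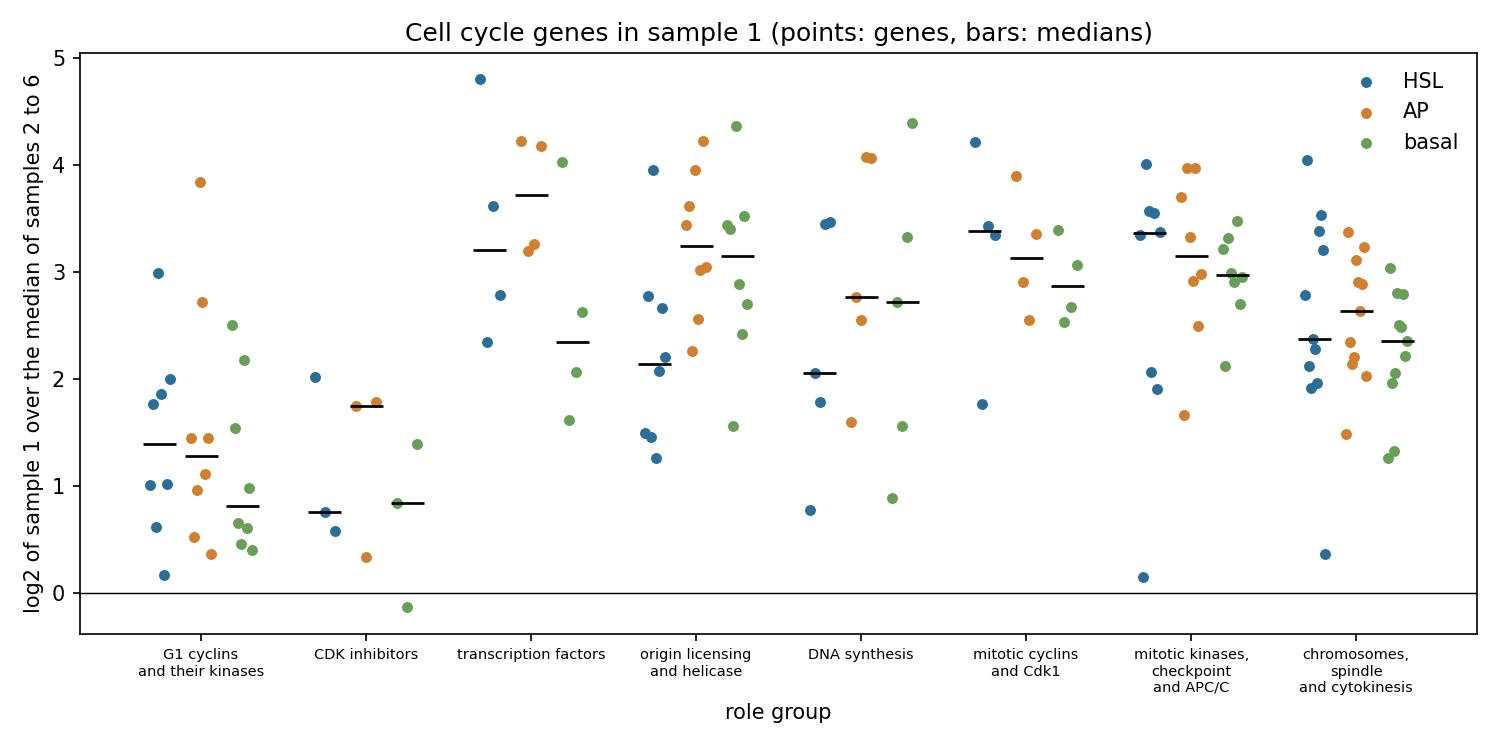
Log2 of the level in sample 1 over the median of samples 2 to 6, 1 point per gene and a bar at the median, by role group and population (HSL, AP, basal from left to right). All points but 1, Cdkn1c in basal libraries, lie above 0, and the medians of replication and mitosis groups lie above those of G1 cyclins.

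Markers of other cell types moved with some of these differences, and their part in the results was not tested. Itgam, 1 of 7 leukocyte markers, was listed at 0 but shares 99.9% of its span with another gene, so this 0 is no measure of its expression. Summed over the other 6, levels ran from 3.70 to 141 CPM in HSL, 4.85 to 95.7 CPM in AP and 61.9 to 312 CPM in basal libraries. Sample 1 was highest in each, and in basal libraries sample 2 was close to it at 306 CPM. All 6 fibroblast markers were detected, at 32.4 to 90.1 CPM in HSL, 503 to 1269 CPM in AP and 582 to 931 CPM in basal libraries. All 6 endothelial markers summed to 14.6 to 36.2 CPM in HSL, 20.6 to 77.2 CPM in AP and 59.0 to 176 CPM in basal libraries. The 5 pericyte markers summed to 78.8 to 155 CPM in HSL, 94.4 to 205 CPM in AP and 70.5 to 102 CPM in basal libraries, and were mostly Notch3 in both luminal populations. HSL libraries, which were lowest in most cell cycle genes, were thus also lowest in fibroblast markers, without overlap. Within populations the order varied. Sample 3, with the lowest replication and mitosis means in each, had the highest fibroblast sum among AP libraries (1269 CPM) and the lowest among basal libraries (582 CPM). The sum of 10 immediate early genes, which respond quickly to growth signals and stress, was lowest in sample 1 among AP libraries (7311 CPM in sample 1, 10340 to 15328 CPM in the others) and among basal libraries (8191 CPM in sample 1, 12309 to 22182 CPM in the others). Among HSL libraries sample 1 had 9467 CPM, within the 9035 to 13347 CPM of the others.

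A wider set of 101 cell cycle genes that are not members was counted the same way; 98 of them were tested. Of 40 other mitosis genes, 32 were lower (80.0%, background 25.3%) and 0 higher (background 25.6%) in HSL against AP by edgeR. That 0 was also 0 at an unadjusted p below 0.05 and by DESeq2. In HSL against basal 26 were lower (65.0%, background 35.5%) and 3 higher (7.5%, background 31.8%). In AP against basal 11 of them were higher (27.5%, near the 26.7% of all genes) and 0 lower by edgeR (background 28.4%). At an unadjusted p below 0.05 1 was lower, and 1 by DESeq2. Without sample 1 the counts were 7 higher and 2 lower (4716 and 4867 of all 16450 genes). Of 35 other replication genes, 23 were lower (65.7%, background 25.3%) and 1 higher (2.86%, background 25.6%) in HSL against AP. Against basal libraries, 19 were lower (54.3%, background 35.5%) and 0 higher (background 31.8%) in HSL by edgeR. At an unadjusted p below 0.05 and by DESeq2, 0 were higher too. In AP against basal 8 were higher (22.9%, below the 26.7% of all genes) and 4 lower (11.4%, background 28.4%). Without sample 1, 2 of the 35 were higher in HSL against basal (5419 of all 16450 genes). In AP against basal 7 were then higher and 7 lower (4716 and 4867 of all genes). Of 23 other G1 control genes, 6 were lower (26.1%, near the 25.3% of all genes) and 4 higher (17.4%, background 25.6%) in HSL against AP. In HSL against basal 11 were lower (47.8%, background 35.5%) and 6 higher (26.1%, background 31.8%). In AP against basal 7 were lower (30.4%, near the 28.4% of all genes) and 6 higher (26.1%, near the 26.7% of all genes). Without the block, 13 of the 98 were lower and 3 higher in HSL against AP (background 20.1% and 19.8%). In HSL against basal 16 were lower and 5 higher without it (background 30.6% and 27.8%). In AP against basal 4 were higher and 5 lower without it (background 21.5% and 23.1%).

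Prim1, a subunit of the primase that starts new strands, was lower in HSL than in AP libraries (-1.67 ± 0.14, adjusted p = 1.4e-06), with medians of 5.69, 19.6 and 10.5 CPM in HSL, AP and basal libraries. Racgap1, which directs cytokinesis, was lower in HSL than in AP libraries (-2.37 ± 0.21, adjusted p = 2.1e-06), and so was Pold1, a DNA polymerase (-1.06 ± 0.12, adjusted p = 9.9e-06). Pold1 was higher in AP than in basal libraries (1.02 ± 0.12, adjusted p = 8.3e-06), as was Lin9, a subunit of the complex that binds CHR letters (0.96 ± 0.12, adjusted p = 1.1e-05). Dut, which removes dUTP from the nucleotide pool, and Rpa2, which covers single-stranded DNA, were lower in HSL than in basal libraries (-1.97 ± 0.18, adjusted p = 4.5e-07, and -1.39 ± 0.13, adjusted p = 8.8e-07). Fzr1, an activator of the anaphase-promoting complex in G1, was higher in HSL than in basal libraries (1.00 ± 0.10, adjusted p = 1.2e-06).

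The retinoblastoma gene Rb1 and the inhibitor gene Cdkn2d were among the G1 control genes with the smallest adjusted p. Rb1 stood at 20.4, 23.2 and 36.5 CPM in HSL, 55.6, 151 and 164 CPM in AP and 15.9, 19.5 and 27.6 CPM in basal libraries, so that AP libraries did not overlap the others. It was lower in HSL than in AP libraries (-2.31 ± 0.21, adjusted p = 2.2e-06) and higher in AP than in basal libraries (2.63 ± 0.21, adjusted p = 2.4e-07). Other genes, Lpar6 and Rcbtb2 among them, overlap 20.8% of the span of Rb1, and reads of such genes cannot be told apart from its own there. Cdkn2d, which encodes the Cdk4 and Cdk6 inhibitor p19, stood at 10.4, 12.3 and 16.8 CPM in HSL, 6.45, 7.87 and 16.3 CPM in AP and 40.0, 51.5 and 62.0 CPM in basal libraries. It was lower in HSL (-2.03 ± 0.18, adjusted p = 3.4e-07) and in AP than in basal libraries (-2.58 ± 0.18, adjusted p = 7.6e-08), in 6 of 6 samples each.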

How the data were processed

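The authors deposited whole-number read counts per gene for 18 libraries, with RPKM and a gene width beside them, per the file headers. The submitters' processing notes name the build GRCm38; which aligner and counter were used is not given in the sources used here. Per the labels' protocols, 2 ng of total RNA went into Smart-Seq v4 cDNA synthesis and libraries were built with Nextera XT, which does not mark strand. Of 52636 identifiers 52489 matched GENCODE M21; the other 147 held at most 0.00677% of counts and were left out. The deposited RPKM values served only as a check: gene counts sum to 87.01 to 89.88% of the library total they imply. The deposited width, in bases, equals the genomic span for 44954 identifiers. Genes whose whole span lies in another gene are often listed at 0. Over 10% of the span is shared in 9 tested members, namely Ccnd1, Ccnd2, Ccne2, Cdk2, Cdk4, Cdkn1c, Ccna2, Ube2c and Kif20a.

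The analysis of counts used edgeR 4.0.16 under R 4.3.3: filterByExpr with a minimum count of 10 (16471 genes kept), TMM factors, and a robust quasi-likelihood fit of population and sample number to all 18 libraries, checked on simulated counts. Calls needed an adjusted p below 0.05 over all genes. Python 3.11.15 with pandas 2.3.3 joined the tables. The block was used because deviations from the population means correlated between same-numbered libraries in all 18 pairs (r 0.127 to 0.63 across genes). In 15 of the 18 pairs the best match was the same number. The exceptions were all pairs of sample 6, at r of 0.127, 0.128 and 0.172, each best matched to another number, so its pairing was not shown. No 2 libraries held identical counts. Alternatives were the fit without the block, DESeq2 1.42.0, other scaling, no filter, each sample number left out, and samples 1 to 3 or 4 to 6 alone.

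The members, role groups and lists were chosen with earlier results of these data known. Folds were named for Mki67 and Top2a, for the 3 members (or fewer) of smallest adjusted p among those called, per role group and comparison, and for up to 4 other cell cycle genes per comparison; further folds are marked as chosen after their values were seen or given for an exception. The erythroid marker list is not reported here.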

Additional observations from a re-analysis of the deposited data

Results flagged for a closer look

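For the 37 members named with a fold change and for the means of the replication and mitosis sets, the 6 libraries of each population were examined for a library whose gap to its nearest neighbour took more of the group's range than Dixon's 95% critical value for 6 samples (0.625), on the log2(CPM + 0.5) scale. Of 117 groups of 6 libraries examined, 47 held such a library. In each of the 47 it was the sample 1 library, and it was the highest of its 6. Chance gives such a library in about 1 in 20 groups, and the members' values in 1 library are not independent of each other.

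Of the set means, the replication set in sample 1 stood at 5.66 in the HSL library, 7.37 in the AP library and 6.61 in the basal library on the log2(CPM + 0.5) scale, and the mitosis set at 3.91 in the HSL library. Single genes made up the rest.

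In the HSL library of sample 1, the G1 genes that stood apart were Ccnd1 at 240.0 CPM and Ccne1 at 11.7 CPM, and the transcription factors were E2f1 at 30.7 CPM and Mybl2 at 9.54 CPM. The replication genes there were Mcm2 at 159.8 CPM, Mcm3 at 122 CPM, Mcm4 at 114 CPM, Mcm5 at 149 CPM, Gmnn at 14.4 CPM, Tyms at 25.8 CPM, Rrm1 at 141 CPM and Uhrf1 at 36.6 CPM. Its mitosis genes were Ccna2 at 38.1 CPM, Ccnb2 at 20.0 CPM, Cdk1 at 31.1 CPM, Plk1 at 8.43 CPM, Aurkb at 28.8 CPM, Bub1 at 10.3 CPM, Birc5 at 18.9 CPM, Cenpa at 20.1 CPM, Kif23 at 11.2 CPM and Tpx2 at 19.0 CPM.

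In the AP library of sample 1, Ccnd1 stood apart at 653 CPM, and the other genes were all of replication or DNA synthesis. They were Mcm2 at 463 CPM, Mcm3 at 424 CPM, Mcm4 at 297 CPM, Mcm5 at 581 CPM, Mcm6 at 965 CPM, Gmnn at 55.6 CPM, Pcna at 21.7 CPM, Tyms at 83.6 CPM and Rrm1 at 459 CPM.

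In the basal library of sample 1, the genes outside replication that stood apart were Ccnd1 at 105 CPM, Ccnd3 at 99.8 CPM, E2f1 at 73.5 CPM and Mybl2 at 25.3 CPM. The replication genes were Mcm2 at 265 CPM, Mcm3 at 288 CPM, Mcm5 at 376 CPM, Mcm6 at 437 CPM, Gmnn at 26.8 CPM, Tyms at 51.0 CPM and Rrm1 at 271 CPM.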

How the results depend on the processing

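All 18 same-number pairs of libraries deviated together from their population means (r between 0.127 and 0.63). These means include sample 1, which stood apart in each population, so a positive r alone does not show pairing. In 15 of the 18 pairs the best match was the same number. The exceptions were all pairs of sample 6, whose pairing was thus not shown. Without the replicate block the members called were 0 higher and 5 lower in HSL against AP, 3 higher and 7 lower in HSL against basal, and 2 higher and 2 lower in AP against basal, and 51 of the 77 named fold changes lost their call with no change of direction. Leaving out 1 sample number at a time gave 2 to 4 higher and 33 to 38 lower in HSL against AP, 5 to 7 higher and 29 to 35 lower in HSL against basal, and 12 to 17 higher and 3 to 8 lower in AP against basal; the 8 lower came without sample 1. Over all genes those fits called 3255 to 4428 higher and 3663 to 4491 lower in HSL against AP. In HSL against basal they called 4754 to 5419 higher and 5369 to 6077 lower, and in AP against basal 3845 to 4716 higher and 4046 to 4867 lower. With samples 1 to 3 alone the counts were 0 higher in HSL against AP, 4 higher in HSL against basal, and 10 higher and 1 lower in AP against basal. Of all 16823 genes tested there, 1531, 3540, 2700 and 2760 were called in that order. With samples 4 to 6 alone 9 were higher in AP against basal (3913 of all 16197 genes). Without sample 1 and without the block 8 were (4127 of all 16450 genes). The log2 fold change of Mki67 in AP against basal was 0.05 and was not called; leaving out 1 sample gave -0.072 (without sample 5) to 0.30 (without sample 3), with -0.03 without sample 1 and -0.072 without sample 4, and samples 1 to 3 alone gave -0.40. The cause of these changes was not tested. DESeq2, DESeq2 size factors in edgeR, scaling by total counts and no filter on low counts each kept the direction and the call of all 77 named fold changes. Scaling by total counts moved the median log2 fold change of all genes to -0.18 in HSL against AP, -0.10 in HSL against basal and 0.13 in AP against basal. Its members called were 2 higher and 38 lower, 6 higher and 35 lower, and 18 higher and 3 lower in the same order; over all genes, 3088 were higher and 5358 lower in HSL against AP, and 5541 higher and 3932 lower in AP against basal, against 4209 and 4165, and 4400 and 4672, with TMM. In the smallest scaled library 1 CPM stood for 24.3 counts, which limits the precision of members near or under 1 CPM.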

Other observations

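Cdkn1b, the inhibitor p27 that restrains cyclin-dependent kinases, separated the samples by number. It had 11.4 to 15.4 CPM in the HSL libraries of samples 1 to 3 and 3.17 to 3.42 CPM in those of samples 4 to 6. In AP libraries the ranges were 14.2 to 18.1 CPM in samples 1 to 3 and 3.48 to 3.88 CPM in samples 4 to 6. In basal libraries they were 12.7 to 20.5 CPM in samples 1 to 3 and 4.30 to 6.88 CPM in samples 4 to 6. The ranges did not overlap in any of the 3 populations, and Cdkn1b was the only one of 51 tested members (1.96%) higher in samples 1 to 3 in that way, beside 320 of 16471 genes (1.94%). A further 230 genes (1.40%) were lower in samples 1 to 3 in all 3 populations with no overlap. The labels record no batch, and this split of the samples was chosen after values were seen and carries no test.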
